A study of Mus musculus with 605 samples.

Results

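The C1q-negative cells are the skin myeloid cells without measurable transcripts of complement C1q, the initiating component of the classical complement pathway, whose 3 chains are encoded by C1qa, C1qb and C1qc and made in skin mainly by macrophages. They were chosen by value: a cell was included when all 3 genes were under 1 TPM (a transcript abundance corrected for length and scaled to a common total in each cell). This held for 106 of the 145 myeloid cells that passed the limits on quality, out of 155 myeloid cells in the tables and 605 cells in the series. Of them, 46 came from wild-type (WT) skin and 60 from mutant skin. The share of C1q-negative cells was therefore 63% in WT (46 of 73 cells, exact Clopper-Pearson 95% interval 50.9 to 74) and 83.3% in mutant skin (60 of 72 cells, interval 72.7 to 91.1). The intervals here and below cover counting error only.

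The study sorted bulge stem cells, melanocytes and myeloid cells from mouse dorsal skin and read single-cell transcriptomes in 7 groups. Both myeloid groups are from postnatal day 56 (P56), when WT follicles rest in telogen. The labels call the mutant only "Mut". The study has more than 1 hairy nevus model. Its text ties the single-cell data of bulge cells to Tyr-Nras mice, in which a tyrosinase enhancer and promoter drive a mutant Nras in melanocytes. That the mutant myeloid cells have this genotype is an assumption. How the myeloid cells were sorted is not stated in the labels or methods at hand. The sample titles give a well for each cell, but no label names an animal or a plate. The cells of each genotype are therefore taken as 1 set, called a plate below, which is an assumption. No test between genotypes was possible, and genotype and plate cannot be told apart. Differences below are descriptions of these 2 plates, and each SD is over cells, which are not replicates. Of the 4 Y-linked genes read (Ddx3y, Eif2s3y, Kdm5d and Uty), none reached 1 TPM in any C1q-negative cell of either plate. Xist was detected in 34 of 46 WT and 51 of 60 mutant cells.

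Skin holds several antigen-presenting cells. Conventional dendritic cells (cDCs) take up antigen, load it on MHC class II molecules and carry it to lymph nodes, a journey that depends on the chemokine receptor CCR7. Type 1 cDCs (cDC1, marked by Xcr1 and Clec9a) present antigen chiefly to CD8 T cells, and type 2 cDCs (cDC2, marked in skin by Cd209a and Mgl2) chiefly to CD4 T cells. Langerhans cells of the epidermis carry langerin (Cd207) together with the adhesion molecules encoded by Epcam and Cdh1, and a part of dermal cDC1s carries langerin too.

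The C1q limit fell in a sparsely filled range. Of the 106 cells, 102 were at 0 for all 3 genes, and the other 4, for which the highest of the 3 values was 0.6, 0.6, 0.9 and 0.9 TPM, lay just inside. The cells just outside had highest values of 1.3, 1.9, 3.3, 5.9 and 35.6 TPM. Among the 39 C1q-positive cells the median of the highest C1q value was 4406 TPM, and 31 were at 100 TPM or more. The number of genes detected per cell had a median of 2896.5 in WT (2118 to 4901) and 2967.5 in mutant C1q-negative cells (1291 to 5869), so the 2 plates were close in this respect.

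Antigen presentation genes dominated the C1q-negative cells. Cd74, the invariant chain that chaperones MHC class II, was at 1 TPM or more in 46 of 46 WT and 58 of 60 mutant cells, and its median was 66313 TPM in WT and 50892 TPM in mutant cells. H2-Ab1, a chain of the class II molecule, had medians of 32941 and 26772 TPM. When each cell was placed with the marker list of highest mean level among 20 lists, the shared antigen presentation list (MHC class II genes with Flt3, Zbtb46, Itgax and Ciita) led in 40 WT and 47 mutant cells. Lymphoid lists led in 4 WT and 10 mutant cells, the monocyte list in 1 and 2, and the migratory dendritic cell list in 1 and 1. The macrophage, Langerhans cell, neutrophil, mast cell, keratinocyte, melanocyte, fibroblast and endothelial lists led in 0 cells.

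To separate the kinds of dendritic cell, the shared list was left out, a choice made after it was seen to lead most cells. The cDC2 list then led in 63 cells, the cDC1 list in 15, lymphoid lists in 14, the migratory and monocyte lists in 6 each and the macrophage list in 2. A leading list marks a range of a score and not a cell type, and in 13 of the 106 cells the gap to the next list was under 0.25 on the log2 scale. The cells are called cDC2-led, cDC1-led and lymphoid-led below, and the remaining 14 are called other cells. Genes of a list are high in the cells it leads by this choice. Their levels below describe the kinds of cell and do not test them.

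**Figure D1:**
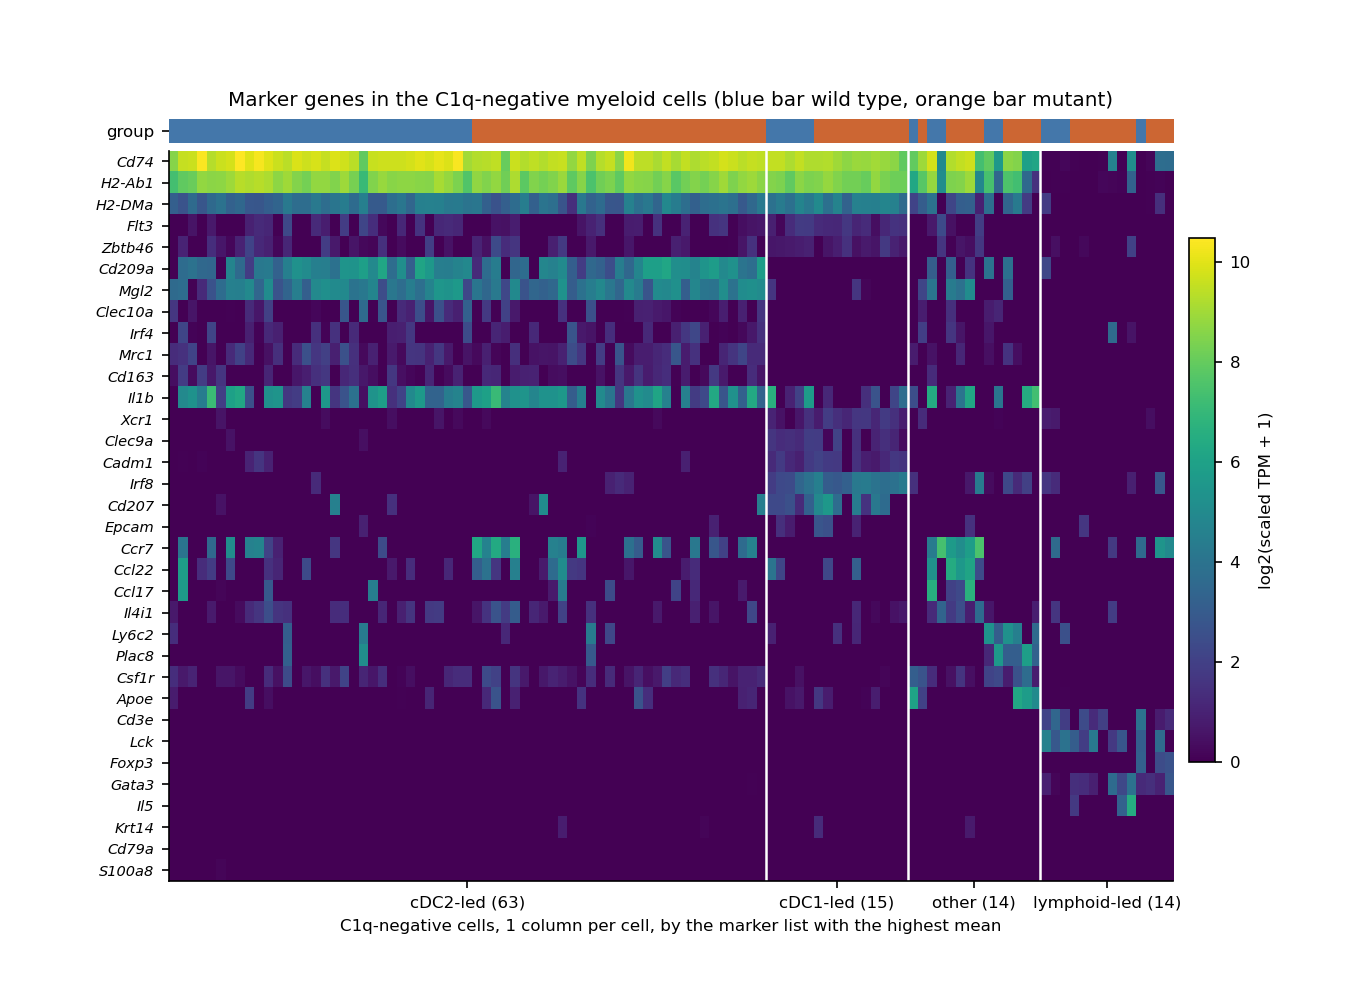
Levels of marker genes, in log2(scaled TPM + 1), with 1 row per gene and 1 column for each of the 106 C1q-negative cells, ordered by the kind of cell. The bar above gives the group (blue WT, orange mutant). Cd74 and H2-Ab1 are lowest in the 14 lymphoid-led cells, while Cd209a and Mgl2 stand out in the 63 cDC2-led cells and Xcr1, Clec9a and Irf8 with Cd207 in the 15 cDC1-led cells. Cd209a, Mgl2, Xcr1, Clec9a and Irf8 are on the lists that placed the cells.

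The cDC2-led cells were the most frequent kind. They made up 32 of 46 WT cells (69.6%, interval 54.2 to 82.3) and 31 of 60 mutant cells (51.7%, interval 38.4 to 64.8), so the intervals overlap. Mgl2, a galactose-type lectin, was detected in 63 of the 63 cells and Cd209a, a DC-SIGN related lectin, in 60. Cd209d, a close paralog of Cd209a that could share reads with it, was found in 57, Sirpa in 46 and the transcription factor gene Irf4 in 33. These cells also carried genes often read as macrophage markers: Adgre1 (F4/80) was detected in 53, Mrc1 (the mannose receptor) in 52, Csf1r in 47 and the scavenger receptor gene Cd163 in 45. The macrophage genes Lyve1 and Folr2 were detected in 1 and 2 of the 106 cells. Il1b, encoding interleukin-1 beta, was detected in 58 of the 63.

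The cDC1-led cells numbered 5 of 46 in WT (10.9%, interval 3.62 to 23.6) and 10 of 60 in mutant skin (16.7%, interval 8.29 to 28.5). Xcr1, the receptor for the chemokine XCL1, was detected in 14 of the 15, Clec9a, a receptor for dead cells, in 13, and Irf8, the transcription factor of this lineage, in 15. Cadm1 was detected in 14 and the interferon-inducible gene Ifi205 in 14. Cd209a was detected in 0 of the 15 cells and Ccr7 in 0.

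Cd207, the langerin gene, was detected in 8 of 46 WT cells (17.4%, interval 7.82 to 31.4) and 10 of 60 mutant cells (16.7%, interval 8.29 to 28.5). In the 18 cells it ranged from 37 to 4059 TPM, and the 2 highest values, 4059 and 2896 TPM, were in mutant cells. Of these 18 cells 12 were cDC1-led and 6 were cDC2-led. Xcr1 was found in 13 of the 18, against 13 of the 88 cells without Cd207, and Clec9a in 11 against 4. Of the Langerhans cell genes, Epcam was found in 5 of the 18 and 5 of the 88, and Cdh1 (E-cadherin) in 1 and 8. The Langerhans cell list reached 3 or more detected genes in 3 WT and 5 mutant cells and led in none.

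Ccr7 was detected in 14 of 46 WT cells (30.4%, interval 17.7 to 45.8) and 25 of 60 mutant cells (41.7%, interval 29.1 to 55.1). Of these 39 cells 27 were cDC2-led, 0 cDC1-led, 6 lymphoid-led and 6 among the other cells. Cd209a was found in 29 of the 39 and Mgl2 in 31. Other genes of migrating or activated dendritic cells were found more often where Ccr7 was on. Il4i1, an amino acid oxidase, was in 25 of 39 cells with Ccr7 and 17 of 67 without, the chemokine gene Ccl22 in 20 and 12, and Ccl17 in 11 and 3. Fscn1, the actin bundler of migratory dendritic cells, was in 4 of the 39 and 2 of the 67. In the 6 cells that the migratory list led, Ccr7 had a median of 4809 TPM and Ccl22 one of 3735 TPM. Both genes are on that list, which placed these cells.

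Monocyte genes marked a small set. Ly6c2, a surface antigen of classical monocytes, was detected in 7 WT and 8 mutant cells, and Ccr2, their chemokine receptor, in 17 and 29. At least 3 of the 12 monocyte genes were detected in 7 of 46 WT cells (15.2%, interval 6.34 to 28.9) and 13 of 60 mutant cells (21.7%, interval 12.1 to 34.2). At least 4 were detected in 6 of 46 WT cells (13%, interval 4.94 to 26.3) and 7 of 60 mutant cells (11.7%, interval 4.82 to 22.6), so the order of the plates turned with the minimum. Both minimums were chosen after the data were seen. In the 6 cells the monocyte list led, Ly6c2 was detected in 5, with a median over the 6 of 1490 TPM, and Plac8 in 6, with a median of 734.5 TPM. Apoe was detected in 4 of these 6 and Csf1r in 6. Chil3 (Ym1) was detected in 3 and reached 8329 TPM.

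The lymphoid-led cells go against the label of myeloid cells. They numbered 4 in WT (8.70%, interval 2.42 to 20.8) and 10 in mutant skin (16.7%, interval 8.29 to 28.5). Of the 14, 7 were led by T cell genes (3 WT and 4 mutant), 4 by regulatory T cell genes (1 and 3) and 3 by genes of type 2 innate lymphoid cells (ILC2, 0 and 3). Cd3e, Cd3d and Cd3g, chains of the T cell receptor complex, were each detected in 6 of the 7 T cell-led and 3 of the 4 regulatory T cell-led cells, and in 0 of the 3 ILC2-led cells. Nkg7, a cytotoxic granule gene, was detected in 5 of the T cell-led cells, and Itgae, the integrin alpha E chain of skin-resident T cells, also in 5. Foxp3, the master regulator of regulatory T cells, was detected in 3 of the 4 and Ctla4 reached 8958 TPM. Gata3 was detected in all 3 ILC2-led cells with a median of 998 TPM, and Il5, a cytokine of type 2 immunity, reached 7938 TPM. The ILC2-led count of 0 of 46 in WT allows a share of up to 7.71% (the upper exact limit).

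Lymphoid-led cells also show how low a value can be before it stops telling cells apart. Cd74 was at 1 TPM or more in 12 of the 14, but with a median of 3.4 TPM, against 65368 TPM in cDC2-led and 44011 TPM in cDC1-led cells. H2-Ab1 was at 1.6 to 3.7 TPM in the 4 WT lymphoid-led cells. Median genes detected were fewer there, at 2402.5 in WT and 1950 in mutant lymphoid-led cells, against 2871.5 and 2969 in cDC2-led cells. Markers of other lineages were seen in few cells together. At least 3 genes of the list were detected in 4 WT and 2 mutant cells for the fibroblast list of 6 genes. The plasmacytoid dendritic cell list of 7 reached this in 2 and 0 cells, the NK cell list of 8 in 1 and 1 and the neutrophil list of 9 in 1 and 0. For the B cell, mast cell and melanocyte lists it was 0 and 0. Single genes of these lists were seen more widely, and Klrk1, an activating receptor gene on the NK cell list, was detected in 11 WT and 28 mutant cells. Krt14, a basal keratin, was detected in 0 WT and 4 mutant cells and did not exceed 127 TPM. Col1a1 was detected in 8 and 8 cells and did not exceed 37.2 TPM.

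**Figure D2:**
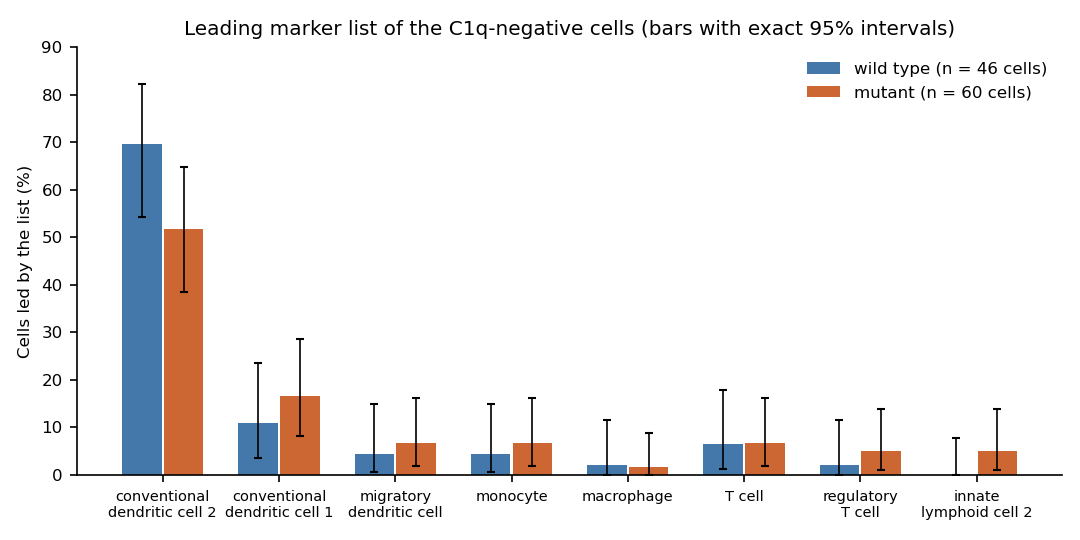
Percent of the C1q-negative cells led by each marker list, by group (blue WT, 46 cells; orange mutant, 60 cells), with the shared antigen presentation list left out. Bars are shares and lines exact 95% binomial intervals, which cover counting error only. The cDC2 list leads in 69.6% of WT and 51.7% of mutant cells, and the intervals of WT and mutant overlap for every list shown.

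The C1q-positive cells of the same plates show what was set aside. There were 27 in WT and 12 in mutant skin. Since the rule split the cells on C1q, this contrast is a description with no test, given as C1q-negative minus C1q-positive means of log2(scaled TPM + 1) with equal weight to both genotypes. Of 9042 genes compared, 28 (0.31%) were higher in C1q-negative cells by 1 or more and 50 (0.553%) were lower by as much. Lowest in C1q-negative cells, apart from the C1q genes, were Apoe (apolipoprotein E, difference -4.13), the chemokine genes Pf4 (-3.79), Ccl8 (-3.54) and Ccl7 (-2.39), the selenium carrier gene Sepp1 (-2.80), Cbr2 (-2.34), the lysosomal membrane gene Cd63 (-2.14), Ly6e (-2.04), the antiviral gene Ifitm3 (-1.92) and the inducible chaperone gene Hspa1a (-1.80). Apoe was detected in 96.3% of WT C1q-positive and 23.9% of WT C1q-negative cells, and in 75% and 28.3% of the mutant ones. Of the 13 macrophage markers measured 12 were lower, with a median of -1.04. All 9 measured complement genes other than C1q were lower too, and 18 of 19 lysosome genes, 24 of 25 interferon response genes and 12 of 12 heat shock genes, beside 48.1% of all genes.

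Higher in C1q-negative cells were Cytip (1.76), a regulator of dendritic cell adhesion, Il1r2 (1.69), the decoy receptor for interleukin-1, Il1b (1.53), H2afz (1.52), Lsp1 (1.51), Cd52 (1.43), Sod1 (1.37), Syngr2 (1.36), Ramp3 (1.35) and Cd9 (1.29). Cytip was detected in 95.7% of WT C1q-negative and 22.2% of WT C1q-positive cells, and in 93.3% and 66.7% of the mutant ones. The 10 measured MHC class II genes were all higher, with a median of 0.43, and 8 of 9 costimulation genes were, led by Cd83 (1.06), beside 51.9% of all genes. High class II levels were shared with the C1q-positive cells, where Cd74 was detected in 100% of WT and 100% of mutant cells. Cd74 differed by 0.04 within WT and 0.58 within the mutant, and H2-Aa by 0.05 and 0.67. Ccr7 differed by 1.25 and was detected in 3.70% of WT and 16.7% of mutant C1q-positive cells. Cd163 hardly separated the sets (0.02), whereas Mrc1 (-1.29), Csf1r (-1.27) and Adgre1 (-0.84) were lower. The cDC2 list did not separate them: of 8 measured genes 4 were higher and 4 lower, with a median of -0.07. Cd209a was higher (0.88), but Clec10a (-0.86), Sirpa (-0.60) and Mgl2 (-0.35) were lower. Mgl2 was detected in 96.3% of WT C1q-positive and 76.1% of WT C1q-negative cells, and in 75% and 63.3% of the mutant ones.

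The differences between the plates over all myeloid cells were set beside those in the C1q-negative cells. Over all 145 myeloid cells, 11 genes were lower in the mutant by 1 or more (0.143% of 7683) and 1 was higher (0.013%). Of these 11, 3 were the C1q genes themselves, which the rule holds near 0 in C1q-negative cells. Inside the C1q-negative cells, 1 gene was lower by 1 or more and 1 was higher (each 0.0126% of 7958 genes compared). Without the C1q genes, 12 of the 15 genes with the greatest negative difference over all myeloid cells remain. Of the 12, 9 were lower in mutant C1q-negative cells as well, beside 47.7% of all genes. Ccl8 went from -1.93 to 0.04, Pf4 from -1.64 to -0.04, Cbr2 from -1.24 to -0.05, Sepp1 from -1.0 to 0.01 and Apoe from -1.0 to 0.33. Other genes were still lower, with Fcer1g at -0.80, Hmox1 at -0.68, Srsf2 at -0.63, Ccl2 at -0.48 and Ccl7 at -0.31, and Erdr1 was at -1.83. The median of the 12 was -1.07 over all myeloid cells and -0.22 in the C1q-negative cells. Of the 15 genes with the greatest positive difference, all 15 stayed higher in the mutant among C1q-negative cells, beside 52.3% of all genes. Their median moved from 0.66 to 0.61. The cells of the smaller set are part of the larger, so the 2 sets of values are not independent. The genes were picked on the larger set, so keeping a sign in the smaller is largely built in and is no test.

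**Figure D3:**
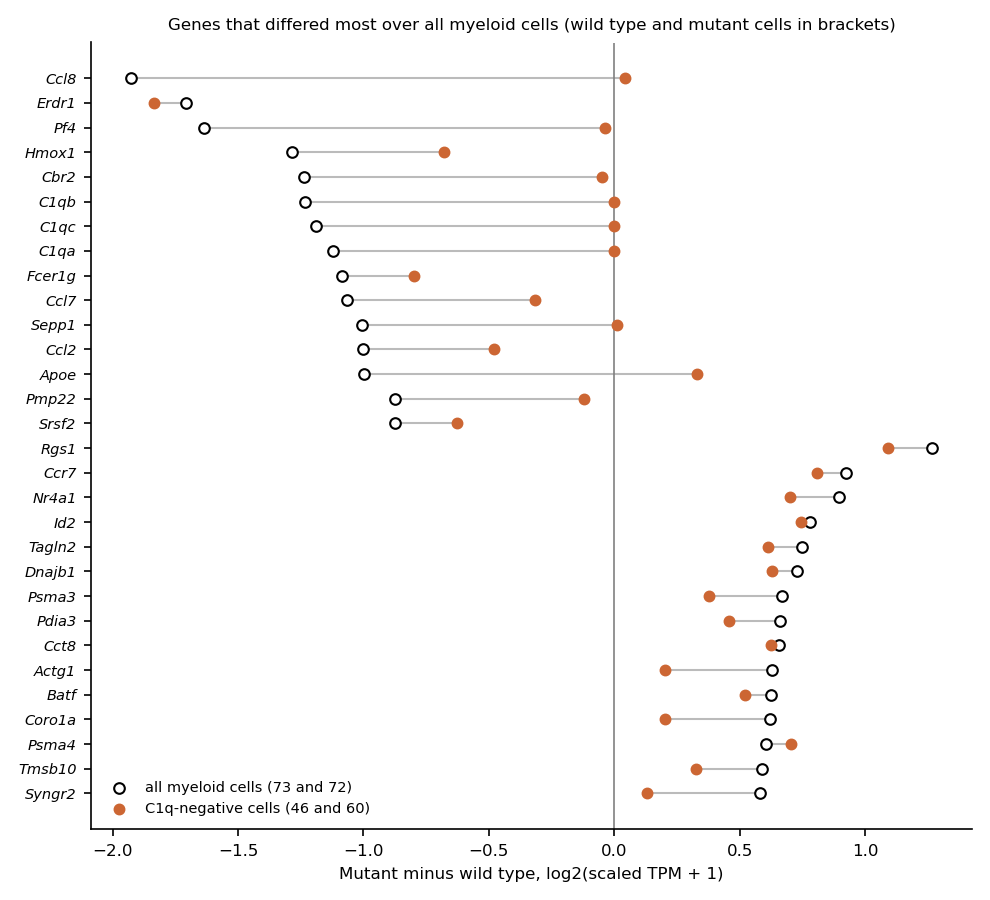
Mutant minus WT difference of mean log2(scaled TPM + 1) for the 15 genes lowest and the 15 highest in the mutant over all myeloid cells (open circles, 73 WT and 72 mutant cells), and for the same genes in the C1q-negative cells only (filled circles, 46 and 60 cells). Ccl8, Pf4, Cbr2 and Sepp1 lie near 0 in the C1q-negative cells, as do the C1q genes by the rule itself, while Erdr1 stays at -1.83 and Rgs1 at 1.09.

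Within the C1q-negative cells, 30 genes were higher in the mutant by 0.5 or more and 30 were lower by as much (each 0.377% of 7958 genes). Rgs1 was highest in the mutant relative to WT. It encodes a regulator of G protein signalling that dampens responses to chemokines. It ranged from 0 to 2764 TPM in WT, with a median of 106 TPM, and from 0 to 17387 TPM in mutant cells, with a median of 488 TPM, so the ranges overlap widely. The difference of means was 1.09 on the log2(scaled TPM + 1) scale (SD over cells 1.82 in WT and 2.10 in mutant, n = 46 and 60 cells). In cDC2-led cells alone it was 1.24, with Rgs1 detected in 19 of 32 WT and 27 of 31 mutant cells. In cDC1-led cells Rgs1 was detected in 0 of 5 WT and 4 of 10 mutant cells.

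Ccr7 came next, with a difference of 0.81 (SD 1.89 and 2.46). It was at 0 at the median in both plates and reached 14227 TPM in WT and 15702 TPM in mutant cells. In cDC2-led cells the difference was 1.5, and Ccr7 was detected in 10 of 32 WT cells (31.2%, interval 16.1 to 50.01) and 17 of 31 mutant cells (54.8%, interval 36 to 72.7). With equal weight to the 4 kinds of cell the difference was 0.32. The migratory dendritic cell list as a whole did not follow Ccr7. Of its 9 genes measured, 3 were higher and 6 lower in the mutant over all C1q-negative cells, with a median of -0.03. In cDC2-led cells Ccl22 was detected in 11 of 32 WT and 12 of 31 mutant cells, Il4i1 in 15 and 13 and Ccl17 in 4 and 6.

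Erdr1 showed the greatest difference of all, at -1.83 (SD 1.07 and 0.90). It ranged from 29.4 to 3555 TPM in WT, with a median of 542 TPM, and from 0 to 851 TPM in mutant cells, with a median of 55.4 TPM. All 46 WT cells and 78.3% of mutant cells had it at 1 TPM or more. The medians were lower in the mutant in each kind of cell, at 545 against 112 TPM in cDC2-led, 148 against 48.2 TPM in cDC1-led and 901 against 10.3 TPM in lymphoid-led cells. This gene lies in a repeated part of the sex chromosomes, so its reads may be shared with copies and its value is uncertain.

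**Figure D4:**
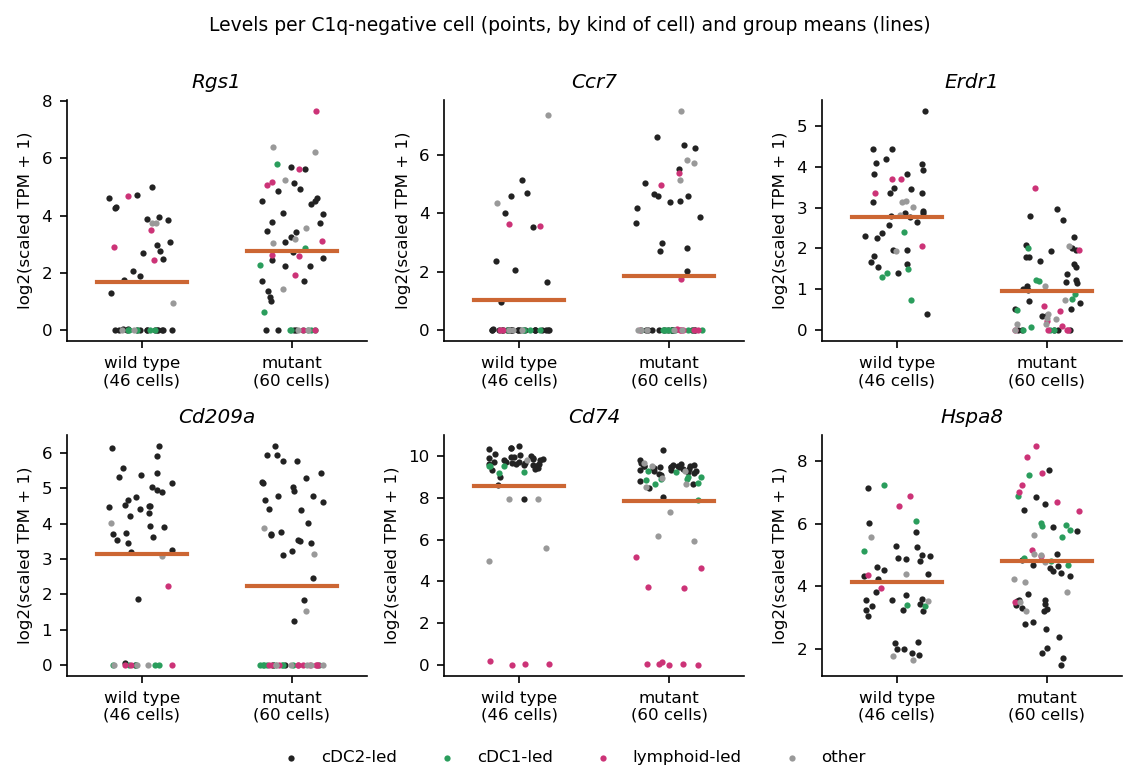
Levels of 6 genes in log2(scaled TPM + 1) in each C1q-negative cell (points, coloured by kind of cell) of WT (46 cells) and mutant (60 cells) skin, with the mean of each group as a line. Rgs1, Ccr7 and Hspa8 have higher means in the mutant and Erdr1, Cd209a and Cd74 lower ones, all with overlapping cells. In Cd74 the lymphoid-led cells form the bottom of each plot.

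MHC class II genes were lower in the mutant over all C1q-negative cells, and the differences were smaller without the lymphoid-led cells. Of the 10 class II genes measured 9 were lower, beside 47.7% of all genes, and their median was -0.28 against 0.0039 for all 7958 genes. Cd74 differed by -0.74, H2-Ab1 by -0.77, H2-Aa by -0.72 and H2-Eb1 by -0.70, and their SDs over cells were 2.47 to 3.19. H2-DMa, which helps load peptide, differed by -0.31. Without lymphoid-led cells, Cd74 was at -0.33, H2-Ab1 at -0.20, H2-Aa at -0.12 and H2-Eb1 at -0.23, and the list's median was -0.03. With equal weight to the 4 kinds of cell the median was 0.12 and these 4 genes were higher in the mutant, Cd74 by 0.43. That weighting counts small sets as much as large ones. In lymphoid-led cells Cd74 had medians of only 3 TPM in WT and 6.5 TPM in the mutant. In the other cells (5 WT and 9 mutant) they were 21665 and 35624 TPM. In cDC2-led cells all 4 genes were lower in the mutant (Cd74 -0.36, H2-Ab1 -0.15, H2-Aa -0.17 and H2-Eb1 -0.17). Among cells with 2000 to 7000 genes above 0, Cd74 differed by -0.10. In cDC1-led cells Cd74 ranged from 52040 to 66203 TPM in 5 WT cells and from 21103 to 53535 TPM in 10 mutant cells, so these few cells overlapped narrowly. The other class II genes did not all go with Cd74 (-0.56) in these cells: H2-Eb1 differed by -0.18, H2-Ab1 by -0.003 and H2-Aa by 0.08.

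H2-Aa and H2-Eb1 are shown with the 130 bases before their start sites because their class II promoters share a short element, the Y box, that the factor NF-Y binds. The 8 letters CTGATTGG, in capitals, were searched on both strands of these windows (RefSeq, build GRCm38.p6). Of the 8 class II list genes with a window that was read, 4 held it (H2-Aa, H2-Eb1, H2-Eb2 and H2-Oa). By windows this was 4 of 9, and 973 of 32851 windows of the same length held it (2.96%). Class II windows on the chromosome of Cd74 were left out by choice, so the count does not cover Cd74. No window of H2-Ab1 or Ciita was read. H2-DMb1, H2-DMb2 and H2-Ob held all but the first of these letters, so a missing match does not show that the element is absent. A match is a description of letters and says nothing of binding in these cells.
H2-Aa, chr17:34287824-34287953, minus strand: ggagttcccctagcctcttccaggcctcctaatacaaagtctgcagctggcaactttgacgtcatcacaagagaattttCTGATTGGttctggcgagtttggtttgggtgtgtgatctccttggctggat
H2-Eb1, chr17:34305737-34305866, plus strand: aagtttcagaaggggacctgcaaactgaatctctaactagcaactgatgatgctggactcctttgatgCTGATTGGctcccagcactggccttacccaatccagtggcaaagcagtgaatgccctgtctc

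The other genes lower in the mutant, by the rule of the 15 greatest negative differences, included dendritic cell and stress genes. Cd209a differed by -0.89, with medians of 1147 TPM in WT and 198 TPM in mutant cells, and was detected in 34 of 46 and 32 of 60 cells. Within cDC2-led cells, which its own level helped to define, it differed by -0.15. The calcium-binding genes S100a4 (-0.88) and S100a11 (-0.71), Crip1 (-0.83), Plaur (the urokinase receptor, -0.86), Avpi1 (-0.81), Fcer1g (the common Fc receptor chain, -0.80) and Emp1 (-0.71) followed. Fcer1g was detected in 1 of 4 WT and 1 of 10 mutant lymphoid-led cells. It differed by -0.54 without the lymphoid-led cells, -0.23 in cDC2-led cells and -0.59 in cDC1-led cells. Atf4, the transcription factor of the integrated stress response, differed by -0.69 and was at -0.69 in cDC2-led cells as well. Hmox1, the haem oxygenase gene, differed by -0.68 and by -0.87 in cDC2-led cells.

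Genes higher in the mutant, by the same rule, included 5 chaperone genes. Hspa8, the constitutive HSP70, had medians of 1362 TPM in WT and 2258 TPM in mutant cells and differed by 0.67. Its difference was 0.10 in cDC2-led cells, and its median in lymphoid-led cells was 4837 TPM in WT and 9905 TPM in the mutant. Dnajb1 (0.63), the chaperonin genes Cct8 (0.62), Hspd1 (0.60) and Hspe1 (0.58), the proteasome gene Psma4 (0.70), Mif (0.70), the mitochondrial RNA-binding gene Slirp (0.70), Id2 (0.74), Nr4a1 (0.70), Ly6e (0.78) and Tagln2 (0.61) completed the set with Lyz1 (0.66), whose reads may be shared with its near-identical copy. Id2, needed for cDC1 and innate lymphoid development, had medians of 258 and 584 TPM. Within the dendritic kinds its medians did not rise, at 170 TPM in WT and 173 TPM in mutant cDC2-led cells and 1215 and 1006 TPM in cDC1-led cells. Its differences of means there were 0.50 and 0.96. Psma4 was detected in 56.5% of WT and 86.7% of mutant cells and differed by 0.92 in cDC2-led cells. Nr4a1, an immediate early nuclear receptor gene, differed by 0.08 in cDC2-led cells.

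Heat shock genes were higher in the mutant for 11 of 12 members, beside 52.3% of all genes, with a median of 0.34. Without lymphoid-led cells the median was 0.08 and in cDC2-led cells 0.04, but with equal weight to the 4 kinds of cell it was 0.32. Heat shock genes also respond to tissue dissociation, and the part of handling in this difference was not tested. Ribosomal protein genes were higher for 17 of 20 (median 0.24), and the median was 0.23 in cDC2-led cells and 0.05 with equal weight to the kinds of cell. Oxidative phosphorylation genes were higher for 15 of 20 (median 0.18), and the median was 0.28 in cDC2-led cells and -0.03 with that equal weight. Lysosome genes were higher for 15 of 19, with a median of 0.09, led by the protease gene Lgmn (0.57), which was detected in 24 of 46 WT and 39 of 60 mutant cells. The 13 MHC class I genes split 7 to 6 with a median of 0.01, and B2m, their shared light chain, differed by 0.41.

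**Figure D5:**
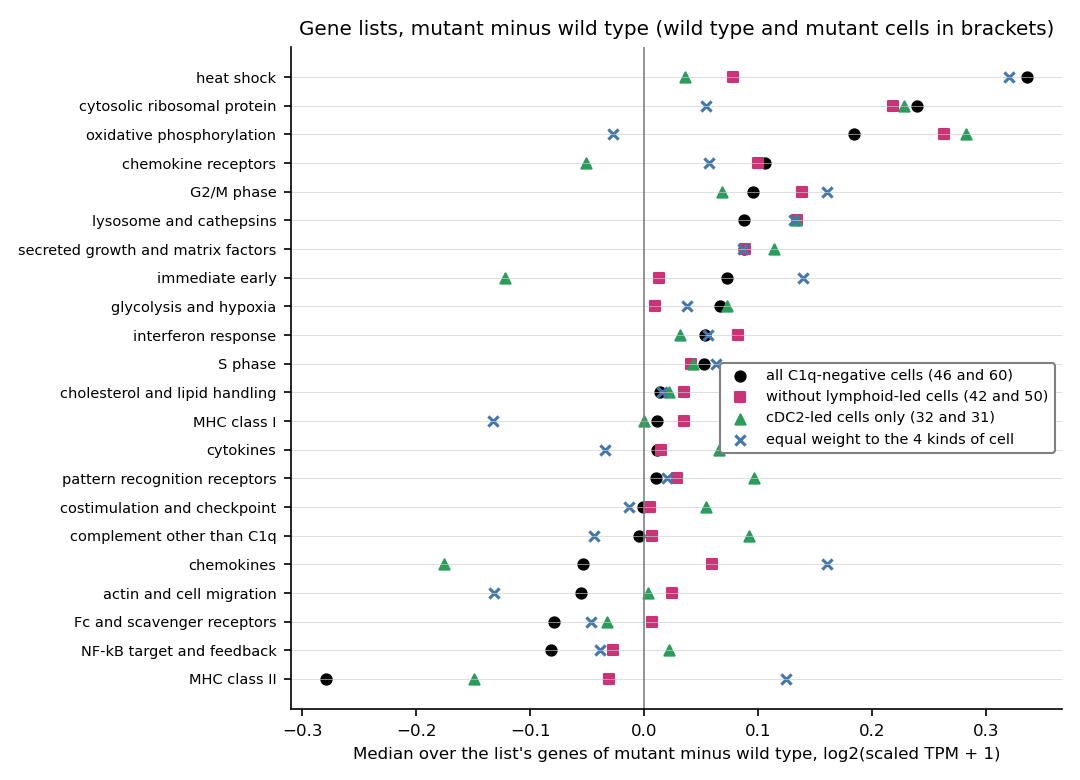
Median over the genes of each list of the mutant minus WT difference, in log2(scaled TPM + 1), in all C1q-negative cells (circles), without lymphoid-led cells (squares), in cDC2-led cells (triangles) and with equal weight to the 4 kinds of cell (crosses). The MHC class II median lies at -0.28 over all cells and at 0.12 with equal weight, and the heat shock median at 0.34 over all cells and 0.04 in cDC2-led cells.

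Inside the cDC2-led cells, the set with the most cells in both plates, some members of the fixed lists differed more than in the C1q-negative cells as a whole. Mmp12, a macrophage elastase, differed by 0.98 and was detected in 13 of 32 WT and 22 of 31 mutant cells, against a difference of 0.46 overall. Lyz1 differed by 1.29. Lgmn differed by 0.75 and was detected in 18 of 32 and 27 of 31 cells. Il1b differed by 0.73 there but by -0.28 overall and by -1.98 in cDC1-led cells, where 5 WT and 10 mutant cells were compared. Cxcl16, a chemokine gene, differed by 0.74 and Mgl2 by 0.21.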

How the data were processed

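Cells were captured singly and read as full-length cDNA. Reads were aligned by the authors to GRCm38 (mm10) with STAR, version 2.4.2 in the submitters' processing notes, and genes were quantified with RSEM, and chambers with no or several cells were left out by microscopy. The values deposited by the authors are TPM, so read depth per cell is not known and the number of genes detected stands in for it. No doublet caller was run. Of the columns, 1 in the WT table matched no label and was not used, and mutant columns entered by group. From 31002 identifiers, values of 38 repeated symbols were averaged and 27 symbols turned into dates were restored. The limits on quality were a summed TPM of 750000 or more, mitochondrial TPM of 20% or less and 1000 or more genes above 0, and they left out 10 cells. Detection means 1 TPM or more. TPM was divided by the cell's total, multiplied by 10000 and taken as log2(value + 1), which understates changes of low genes. A gene was compared where 10% or more of either group's cells had it. Named genes were the 15 greatest differences each way (10 for C1q-negative minus C1q-positive) where 25% or more of either group's cells had the gene, leaving aside Xist, Tsix, Y-linked (Erdr1 was not among these), ribosomal protein, mitochondrial and predicted genes and pseudogenes, together with Cd74, Ccr7, Cd207 and list members. Lists numbered 20 for cell types and 23 for pathways, and 7 of their genes had no row. The cells and lists were chosen with earlier results of these data known. The code was run on simulated cells with planted shifts, not divided by the total, and with planted marker lists. This checked the code only and tests none of the results here. Values were computed with pandas 2.3.3 and NumPy 2.4.6 under Python 3.11.15, intervals with SciPy 1.17.1 and plots with matplotlib 3.10.9. Some genes of the lists are not reported here.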

Additional observations from a re-analysis of the deposited data

How the results depend on the processing

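The plates limit every comparison: 1 assumed per genotype, with 46 and 60 cells, no read depth, and 5 WT cDC1-led cells. No paired analysis was possible because the columns carry no shared replicate number and no test was made. The share of C1q-negative cells was 57.5 to 67.1% in WT and 83.1 to 90.3% in the mutant under other C1q limits (all 3 genes at 0, under 10 or under 100 TPM) and other limits on cells (none, or 2000 to 7000 genes). The count of genes higher by 1 or more (1 in the main comparison) was 270 with no division by the total and 29 with a pseudocount of 0.1, 2 without lymphoid-led cells, 3 in cells led by antigen presentation genes, 0 with 2000 to 7000 genes, and, among alternatives chosen after seeing the data, 3 in cDC2-led cells, 26 in cDC1-led cells, 2 without the cells with the highest 25% of heat shock means and 0 with equal weight to the kinds. The count lower by 1 or more (also 1) was 240 with no division, 32 with a pseudocount of 0.1, 2 with C1q under 10 TPM, 2 in cDC2-led cells, 33 in cDC1-led cells and 11 over all myeloid cells. Without division, values are log2(TPM + 1) and a larger scale, and list medians became -0.57 for Fc and scavenger receptors, 0.53 for chemokine receptors, 0.44 for secreted factors, 0.31 for interferon response, 0.39 for S phase, 0.52 for G2/M phase and 0.50 for glycolysis. In cDC1-led cells the medians were 0.57 for chemokine receptors and 0.40 for G2/M phase. Of the 31 named genes, 4 changed sign with equal weight to the kinds of cell (Cd74, H2-Ab1, H2-Aa and H2-Eb1), 8 changed sign or were at 0 in cDC1-led cells, and 0 did under the other alternatives within the C1q-negative cells. The subsets and weights by kind of cell are descriptions, and no cause of the differences was tested.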

Other observations

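Some further list members differed between the plates. The interferon response list had a median difference of 0.05. Plin2, a lipid droplet coat gene, was detected in 19 of 46 WT and 38 of 60 mutant cells (0.47). Fcgr2b, the inhibitory Fc receptor, differed by 0.41, whereas Fcer1g was lower. Nfkb1 was lower (-0.42) and Nfkbia, which encodes its inhibitor, higher (0.31). Itgae was detected in 3 WT and 15 mutant cells, a difference of 0.33. Over both plates 10 of these 18 cells were lymphoid-led and 7 cDC1-led. Spp1 was detected in 7 WT and 17 mutant cells (0.22), and over both plates in 10 of the 15 cDC1-led and 10 of the 63 cDC2-led cells. Klrk1 was detected in 13 of the 15 cDC1-led cells.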
